A study of Rattus norvegicus with 12 samples.

Results

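The comparison described here set active against silent networks of cultured hippocampal neurons while transcription was blocked, and asked which transcripts differed in amount without new RNA being made. It used 6 of the 12 arrays of the series, those of cultures treated with actinomycin D (ActD), as 3 pairs of 1 array of active and 1 of silent cultures at 5, 30 and 60 min. The transcripts described are the 7300 of 9600 spots that carry 1 gene symbol and have a mean log2 intensity above 5 over the 12 arrays, which cover 5545 of the 6284 named genes. Just inside this limit lay a clone of MRPS6 (5.00) and just outside a clone of NKIRAS1 (4.999), and 1196 named spots lay at or below it. The choice used the brightness of a spot and not its response.

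The neurons came from rat embryos (Sprague Dawley, embryonic day 18.5), grew above a feeder layer of glia and were used after 12 days in culture. All cultures, the active ones included, spent 3 h in a silencing mixture of TTX (100 nM), a blocker of sodium channels, and the glutamate receptor antagonists CNQX (40 µM) and D-APV (50 µM). The silent cultures stayed in this mixture (Block + ActD), and the active ones received the potassium channel blocker 4-aminopyridine (500 µM) together with bicuculline (50 µM), an antagonist of inhibitory GABA receptors (BiC/4AP + ActD). Both carried ActD at 25 µM, and the 6 arrays without ActD had the same pairs of states and times. Every array held pooled RNA, from 3 coverslips per the labels and from separate experiments per the study's methods, so that it stands for a mixture of cultures and carries no spread between them. No condition was repeated on a second array. The times are those of the labels.

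A transcript's level is set by how fast it is made and how fast it is degraded. ActD lodges in DNA and stops RNA polymerases, and the level then follows degradation alone, which RNA-binding proteins, microRNAs and the exonucleases and deadenylases of the decay machinery can speed or slow. Some transcripts have their own route of decay: cells adjust the stability of alpha and beta tubulin messages while they are translated, according to how much unpolymerised tubulin protein is present. Transcripts of immediate early genes are made within minutes of strong synaptic activity and are lost quickly, whereas those of ribosomal proteins and of glycolysis are long-lived.

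Median raw intensity on the 6 ActD arrays ran from 62.4 to 95.4. Each array was brought to a common scale, the z-score of its log intensity multiplied back to log2 units, and this is called a level below. A change is the level of the active array minus that of the silent array of the same time. The SD of the change over the described spots was 0.30 at 5 min, 0.38 at 30 min and 0.32 at 60 min. With 3 pairs, no clone of a named gene passed the test for activity with ActD (limma, Benjamini-Hochberg adjusted p below 0.05), and 1 of 9600 spots did (0.0104% of spots), which is unlisted in the annotation and dim. At an unadjusted p below 0.05 there were 254 of the 7300 described spots, 3.48%, beside 4.52% of all spots. The other normalizations and fits tried gave no call among the described spots either. The values below are therefore given as measured, with the spread between pairs, and a clone is said to stand higher or lower and not to have changed.

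The clearest feature of the single pairs was the tubulins, the subunits of microtubules. The array holds 21 described clones of alpha tubulin and 17 of beta tubulin, spread over the whole spot order. The median level of these 38 clones was 8.38 in silent and 6.98 in active cultures at 5 min. It was 7.63 in silent and 8.44 in active cultures at 30 min, and 8.17 and 8.04 at 60 min. The active array at 5 min thus gave the lowest median of the 6 and the active array at 30 min the highest. Of the 38 clones, 36 were lower with activity at 5 min, 35 were higher at 30 min, and 24 were lower at 60 min. The families are a description, since they were picked out after their values were seen, and clones of related genes share sequence and can bind each other's transcripts, so that 38 clones are not 38 measurements. Over the 3 pairs 0 of the 38 had an unadjusted p below 0.05.

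Among alpha tubulins the median change was -1.19 log2 at 5 min, 0.69 at 30 min and 0.04 at 60 min. The 5 clones of TUBA1C lay between -1.58 and -1.19 at 5 min and were all higher at 30 min (median 0.86). Of 13 clones of TUBA1B, a widely used alpha tubulin, 12 were lower at 5 min and 12 higher at 30 min, with medians of -1.06 and 0.58. The clone with the lowest change at 5 min stood at 8.43 in silent and 6.73 in active cultures, at 7.77 and 8.43 at 30 min, and at 8.13 and 8.05 at 60 min. The size at 5 min differed between a dimmer and a brighter group of clones, though the dimmer group itself ran from -1.70 to -0.28. The 16 alpha tubulin clones with a mean log2 intensity under 9 had a median of -1.36 at 5 min, whereas the 5 brighter ones had -0.23, and the brightest, a TUBA1B clone, stood at 12.58 in silent and 12.91 in active cultures. At 30 min both groups were higher, by 0.75 and 0.46.

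Beta tubulins had median changes of -1.03, 0.84 and -0.26 at 5, 30 and 60 min. All 7 clones of TUBB4B were lower at 5 min (median -1.03) and 6 of 7 higher at 30 min (0.61). The single clone of TUBB2A, a beta tubulin of neurons, stood at 8.02 and 6.68 at 5 min, 6.98 and 8.45 at 30 min and 7.93 and 7.85 at 60 min, silent before active. This clone gave the largest positive change at 30 min among described spots with a mean log2 intensity of at least 7, at 1.47. TUBB3, the beta tubulin that marks neurons, had a clone at -1.07, 1.11 and -0.26 and another at -0.47, 1.02 and -0.28. By contrast the 7 clones of gamma tubulin and its ring complex (TUBG1, TUBG2, TUBGCP2, TUBGCP3, TUBGCP4), which nucleate microtubules, had medians of 0.15, 0.21 and -0.01. The remaining 25 clones of the list of microtubule and neurofilament genes, among them motor, dynactin and tau-type proteins, stood at 0.01, -0.06 and 0.00.

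**Figure D1:**
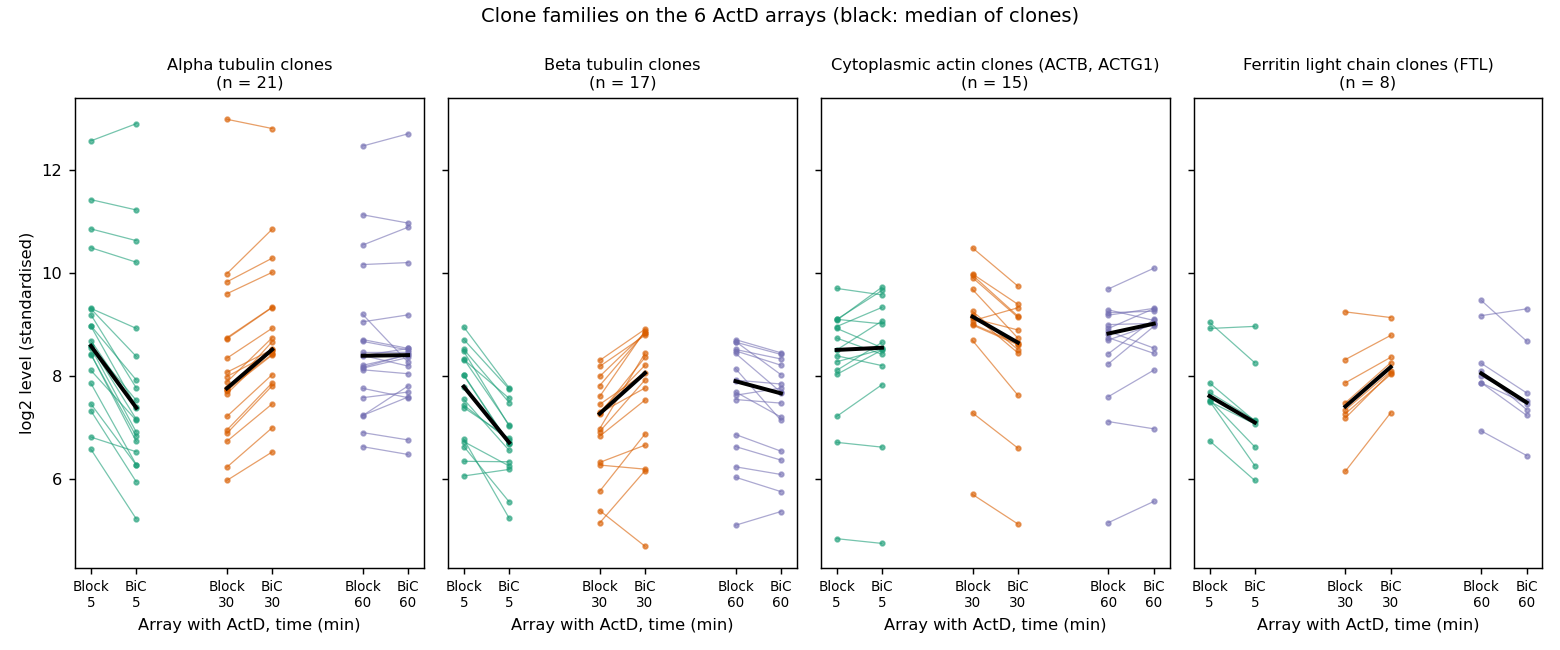
The log2 level (y axis, standardised per array) of each clone of 4 families on the 6 ActD arrays (x axis, Block and BiC/4AP at 5, 30 and 60 min). Thin lines join the silent and active array of 1 time for 1 clone, and the black line joins the medians of the clones. Of 21 alpha tubulin clones 20 were lower at 5 min and 20 higher at 30 min.

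A z-fold, the change in units of its SD over all spots, was also formed, since the study sets a threshold of 1.4 on this quantity. The study counted a transcript only where this threshold was passed both with and without ActD. Here it was applied to each ActD pair alone, so the counts below do not follow the study's rule. The threshold corresponds to a change of 0.78 log2 at 5 min, 0.80 at 30 min and 0.75 at 60 min. Beyond it lay 16 described spots higher and 112 lower at 5 min (0.219% and 1.53%, beside 2.32% and 3.49% of all spots), 132 higher and 136 lower at 30 min (beside 4.14% and 4.06%), and 39 higher and 98 lower at 60 min (beside 3.27% and 3.05%). Alpha and beta tubulin clones made up 26 of the 112 lower spots at 5 min and 16 of the 132 higher spots at 30 min. Spots outside the described set, dim or without a single gene symbol, supplied most of the calls over all spots at each time.

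Other abundant transcripts with several clones followed the tubulins in part. FTL, the light chain of the iron store ferritin, had 7 of 8 clones lower at 5 min, 7 higher at 30 min and 7 lower at 60 min, with medians of -0.76, 0.76 and -0.53. Of the 6 metallothionein clones (MT1E, MT1G, MT1H, MT1X, MT2A, MT3), which encode small zinc-binding proteins, 5 were lower at 5 min and 5 higher at 30 min (medians -0.92 and 0.94), and all 6 were lower at 60 min (-0.29). MT1H stood at 8.23 in silent and 6.83 in active cultures at 5 min, and at 8.17 and 9.40 at 30 min. The 4 clones of GAPDH, a glycolytic enzyme, were all lower at 5 min (median -0.59) and all higher at 30 min (0.60). RPL3, a protein of the large ribosomal subunit, had 10 of 11 clones lower at 5 min and 10 higher at 30 min (medians -0.78 and 0.56).

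Among brighter clones, both clones of RPL19, another large-subunit protein, had changes of -1.06 and -1.05 at 5 min and 0.54 and 0.37 at 30 min. A clone of TMSB4X, the actin-binding peptide thymosin beta, had a change of -0.93 at 5 min, and stood at 10.94 in silent and 11.79 in active cultures at 30 min, while the other clone had changes of -0.73 and 0.06. Both of the brighter clones of UBB, a polyubiquitin gene, stood at -1.05 and -1.02 at 5 min and 0.52 and 0.55 at 30 min, and the remaining clone at -0.18 and 0.26. These were chosen after their values were seen.

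The cytoplasmic actins went another way. Of 9 clones of ACTG1, 8 were higher with activity at 5 min (median 0.54), 8 lower at 30 min (-0.59) and 9 higher at 60 min (0.30). The 6 clones of ACTB were all lower at 5 min (median -0.11) and at 30 min, there between -0.77 and -0.50. Their median at 60 min was -0.17, and 0.11 once local medians of spots were subtracted. An ACTG1 clone stood at 7.22 and 7.84 at 5 min, 8.70 and 7.63 at 30 min and 7.61 and 8.12 at 60 min, silent before active. Within the same arrays, then, microtubule and microfilament subunits stood on opposite sides of 0 at 30 min. The median of all alpha tubulin clones kept its sign at each time under 5 other normalizations, and at 5 min it ranged from -1.36 to -1.06. The medians of the beta tubulins, FTL and the metallothioneins did so too, whereas at 60 min those of ACTB, of the dimmer alpha tubulins and of the gamma tubulin genes did not.

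In all, 93 genes had at least 4 described clones. All clones of a gene were lower at 5 min for 14 of them and higher for 5. At 30 min the order turned, with 12 genes higher and 3 lower in every clone, and at 60 min 2 were higher and 4 lower. Lower in every clone at 5 min and higher in every clone at 30 min were TUBA1C, GAPDH, the glycolytic enzymes ENO1 (medians -0.32 and 0.35) and TPI1 (-0.14 and 0.25), the proteasome subunit PSMB4 with 8 clones (-0.33 and 0.45), and RPL4 with 7 clones (-0.43 and 0.29). Across genes in general the clones of a gene resembled each other only weakly. The rank correlation between a gene's first and second described clone was 0.156, 0.130 and 0.162 at the 3 times over 1215 genes, and 0.266, 0.245 and 0.265 over 324 genes with both clones at a mean log2 intensity of at least 7.

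Without ActD the same families did not show this order. The 38 tubulin clones had a median change of -0.34 at 5 min, -0.78 at 30 min and 0.32 at 60 min. FTL had medians of -0.54, -0.56 and 0.76 and the actin clones 0.38, -0.09 and -0.31. At 30 min the tubulins thus stood below 0 without and above 0 with ActD. With 1 array per condition a difference between both states at a single time has no test.

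The resemblance between pairs was read across the described spots, which share arrays and hybridizations and are not replicates. The changes at 5 and 60 min had a rank correlation of 0.367 over 7300 spots, 0.521 over the 2814 with a mean log2 intensity of at least 7 and 0.602 over the 874 with at least 9. The 30 min pair did not share it, at -0.170 with 5 min and -0.0758 with 60 min. Part of the likeness moved with spot order: after local medians of 25 neighbouring spots were subtracted, the value for 5 and 60 min was 0.267, or 0.250 among the brightest. With quantile normalization it was 0.552 among the brightest. Without ActD the values were -0.139 for 5 and 60 min, 0.0319 for 5 and 30 min and -0.272 for 30 and 60 min.

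**Figure D2:**
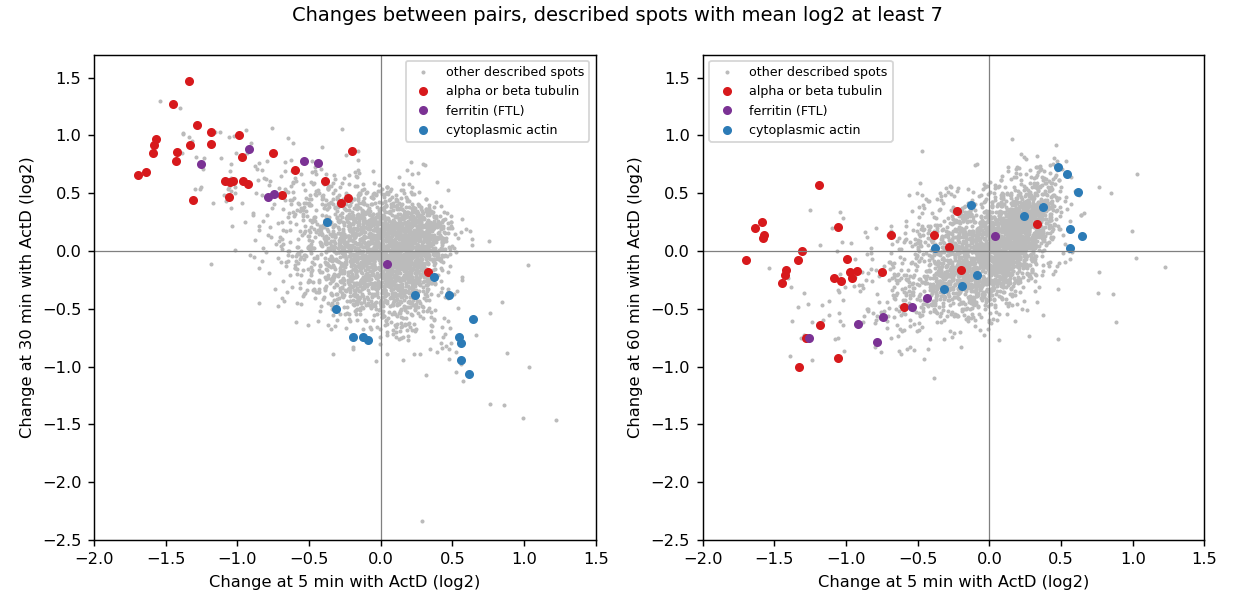
Changes (log2, active minus silent with ActD) at 5 min on the x axis against 30 min (left) and 60 min (right) on the y axis, 1 point per described spot with a mean log2 intensity of at least 7 (2814 spots, 1 of them outside the axes). Most tubulin and ferritin clones lie to the left of 0 and above 0 at 30 min, and most actin clones lie below 0 at 30 min.

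Of the described spots, 1039 (14.2%) were higher with activity in 3 of 3 pairs, beside 14.9% of all spots, and 991 (13.6%) were lower in 3 of 3, beside 12.6% of all spots. In 172 spots (2.36%) the 3 active arrays all lay above the 3 silent arrays, beside 2.7% of all spots, and in 129 (1.77%) they all lay below, beside 1.76%. Among the 874 brightest described spots 260 (29.7%) were higher and 50 (5.72%) lower in 3 of 3 pairs. Brightness moved with the change: the median change of the 333 spots with a mean log2 intensity above 11 was 0.24 at 5 min, -0.02 at 30 min and 0.20 at 60 min.

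Lowest by p was WRAP53, which carries telomerase RNA to Cajal bodies. It stood at 7.74 in silent and 6.97 in active cultures at 5 min, at 5.73 and 4.23 at 30 min and at 5.21 and 3.81 at 60 min, a mean change of -1.23 log2 (SE 0.19, limma adjusted p = 0.736). The active value was the lower in each pair, while the 3 active and 3 silent arrays overlapped, since both arrays of the 5 min pair were high. A clone of MED8, a subunit of the Mediator complex, had nearly the same levels, at 7.63 and 7.18, 5.58 and 4.40, and 5.35 and 3.90, with a mean of -1.03 (SE 0.29, limma adjusted p = 0.937). The other described clone of MED8 had changes of -0.16, 0.19 and -0.10 at 5, 30 and 60 min. The former MED8 clone and the WRAP53 clone lie 3 positions apart in the spot order (2179 and 2182). This MED8 clone lies between clones of CST7 and UCHL3 with mean log2 intensities of 13.42 and 13.25. WRAP53 lies between clones of CTNNA1 and MEPCE with 7.09 and 5.88. The MEPCE clone was also high in the 5 min pair, at 7.63 in silent and 6.98 in active cultures. It stood at 5.45 and 5.51 at 30 min and at 5.42 and 5.02 at 60 min. The CTNNA1 clone did not share this, at 7.11 and 7.30, 7.25 and 6.90, and 6.71 and 7.01. The part of the neighbours in the result was not tested.

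Entry to the 12 lowest by p in the downward direction required the same sign in 3 of 3 pairs. The other clones of this set had mean changes between -0.65 and -0.41, at a limma adjusted p of 0.937. They belonged to ACD, a shelterin protein of telomeres (-0.65), LRP10, a lipoprotein receptor relative (-0.61), SEC22C, a protein of transport between endoplasmic reticulum and Golgi (-0.56), MARS1, the methionyl-tRNA synthetase (-0.55), RTL8C, a retrotransposon-derived gene (-0.50), ZDHHC16, a palmitoyltransferase (-0.47), UBE2C, a ubiquitin-conjugating enzyme of mitosis (-0.45), CHD2, a chromatin remodeller (-0.45), HAUS4, a subunit of the augmin complex (-0.44), and RAB10, a GTPase of vesicle traffic (-0.41). MARS1 stood between 5.10 and 5.17 in the active and between 5.58 and 5.80 in the silent arrays, without overlap. RAB10 was the brightest, with silent levels of 7.87, 8.32 and 8.47 at the 3 times and changes of -0.43, -0.33 and -0.47. Of 8 other described clones of the 12 genes, that of MED8 included, 5 had the same direction, and for MARS1 the other 3 stood at 0.24, 0.06 and -0.36.

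Upward, the lowest by p was IL24, a cytokine, at 5.47 and 5.74, 5.07 and 5.78, and 5.30 and 6.02 (silent before active at 5, 30 and 60 min), a mean change of 0.57 (SE 0.14, limma adjusted p = 0.937). EPCIP had the largest mean, 0.95 (SE 0.25, limma adjusted p = 0.937), which varied from 0.24 at 5 min to 1.60 at 30 min. ROMO1, a small protein of the inner mitochondrial membrane and the brightest of the set, stood at 13.14 and 13.56, 13.24 and 13.63, and 12.62 and 13.15, with a mean of 0.44 (SE 0.11, limma adjusted p = 0.937). The remaining 9 lay between 0.38 and 0.49: RBCK1, a subunit of the linear ubiquitin ligase, PEX11A, a protein of peroxisome division, RNF25, a ubiquitin ligase, the growth factor TGFB1, GNA12, a G protein subunit, CHAC2, an enzyme that degrades glutathione, FAM3A, STRAP, a partner of the TGF-beta receptor, and PMS1, a mismatch repair protein. In each of the 12 the active array was the higher at all 3 times, which was a condition of entry to the set. TGFB1 stood at 5.83 and 6.16, 6.54 and 7.07, and 6.34 and 6.91, and its other clone at -0.47 over the 3 pairs. Of 3 other clones in this direction, 1 agreed in sign.

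Among clones with a mean log2 intensity of at least 9, ROMO1, PMS1, FAM3A, RNF25, PTP4A3, a phosphatase (mean 0.38, SE 0.12), and ESM1, a proteoglycan of endothelial cells (0.36, SE 0.11), led upward. POLR2D, a subunit of RNA polymerase II (-0.38, SE 0.14), the cytoplasmic actin ACTB (-0.35, SE 0.17), the ribosome rescue factor PELO (-0.44, SE 0.23), the peptidyl-prolyl isomerase PPIA (-0.37, SE 0.21), the splicing regulator PTBP1 (-0.28, SE 0.16) and GAL3ST1, a sulfotransferase of galactolipids (-0.39, SE 0.23), led downward. The limma adjusted p of each was 0.937.

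**Figure D3:**
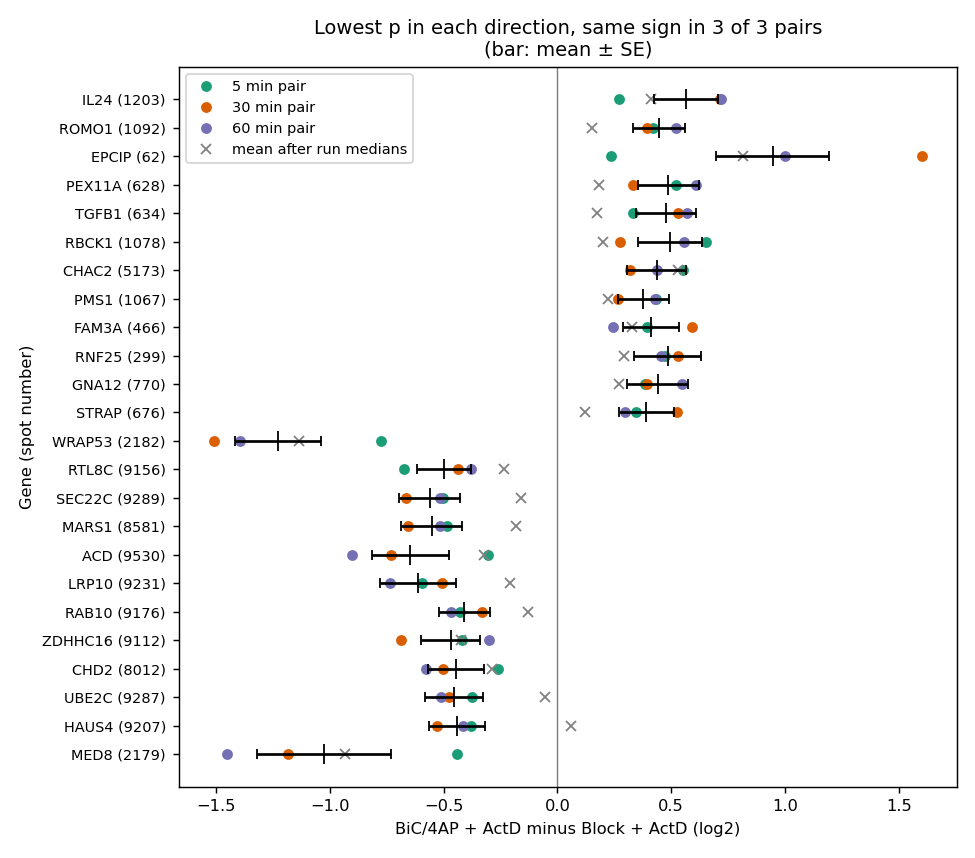
Changes of the 12 clones with the lowest p in each direction (y axis, gene and spot number) in the 5, 30 and 60 min pairs (points, log2 on the x axis), with the mean and its SE (bars) and the mean after medians of runs of 25 spots were subtracted (crosses). The crosses lie nearer to 0 than the bars for all but CHAC2, and HAUS4 crosses 0, at 0.06.

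These clones were not spread evenly. Of the 12 that stood higher, 11 lay in the first 2 of 10 equal parts of the spot order and 0 in the last 2, and of the 12 that stood lower, 10 lay in the last 2 parts and 0 in the first 2. The median change of all described spots went from 0.22 in the first part to -0.17 in the last, and it did so in each ActD pair, from 0.16 to -0.12 at 5 min, 0.20 to -0.12 at 30 min and 0.31 to -0.29 at 60 min. After medians of runs of 25 spots were subtracted, the mean changes were 0.12 to 0.81 for the clones that stood higher and -1.13 to 0.06 for those that stood lower, and 3 of 12 in each direction kept an unadjusted p below 0.05. Without ActD the 60 min pair ran the other way, from -0.19 to 0.28. The order of the spots in the table is used here, and their place on the membrane was not tested.

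**Figure D4:**
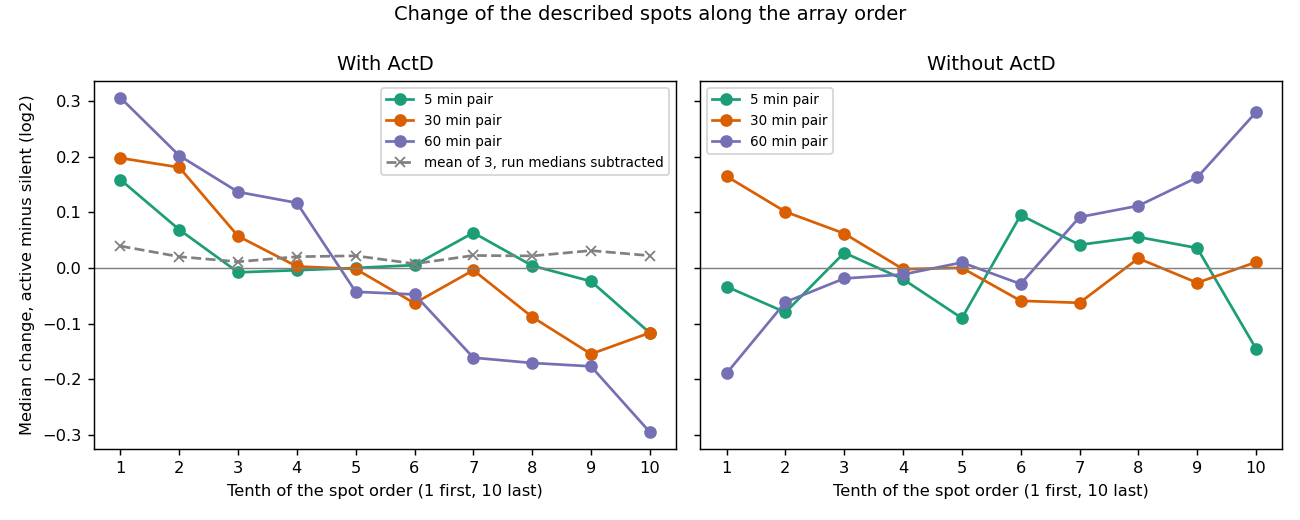
Median change (y axis, log2, active minus silent) of the described spots in each of 10 equal parts of the spot order (x axis, first to last) with ActD (left) and without (right), 1 line per pair. With ActD each of the 3 lines ends lower than it starts, at 60 min going from 0.31 to -0.29, and the dashed line shows the mean of the 3 pairs after medians of runs of 25 spots were subtracted.

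At single times some clones outside the families above also stood far from 0. ANKHD1, an ankyrin repeat protein, had the largest change at 5 min, -4.98, which came from the silent array alone: it read 11.77 there and between 6.79 and 7.14 on the other 5 ActD arrays. PCTP, a phosphatidylcholine transfer protein, stood at 7.89 in silent and 9.12 in active cultures at 5 min, a change of 1.23, and at 9.57 and 8.11 at 30 min, a change of -1.46. The kinase STK25 did the same, with 0.99 and -1.45, and so did CREB3L1, a membrane-bound transcription factor, with 1.03 and -1.01. The zinc transporter SLC30A5 had 1.02 at 5 min and -0.12 at 30 min. At 30 min CRBN, the substrate receptor of a ubiquitin ligase, stood at 7.84 in silent and 5.50 in active cultures, a change of -2.34, with 0.29 and -0.03 at the other times. RMND5A, a subunit of another ubiquitin ligase, had -1.33 at 30 min and 0.86 at 5 min. SLX1B, which cuts branched DNA, had values near those of the tubulins (-1.54, 1.30 and -0.14). ANKHD1, STK25, CREB3L1 and SLX1B had 2 described clones each, and the values here are those of 1 clone and not of the gene.

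At 60 min the largest positive changes among brighter spots were those of CYB561, an electron carrier of secretory vesicles (0.97), IFT57, a protein of ciliary transport (0.92), NACC2, a transcriptional repressor (0.87), and LARP6, an RNA-binding protein (0.84). The largest negative ones were ACKR2, a chemokine receptor (-1.10), a TUBB clone (8.15 in silent and 7.15 in active cultures), an RPL3 clone (-0.94) and HSPA8, the constitutive heat shock protein (-0.93). All 4 of the former lie in the first 2 of 10 equal parts of the spot order and all 4 of the latter in the last 2. CYB561 and LARP6 had 2 described clones each and ACKR2 and HSPA8 had 3, of which 1 is given here. These pairs carry no test.

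The check of stimulation used immediate early genes. FOS stood at 6.29 and 6.15, 5.15 and 5.86, and 5.38 and 5.60, silent before active at 5, 30 and 60 min. ARC, which acts at synapses, had changes of 0.16, 0.16 and 0.23, and HOMER1, a postsynaptic scaffold, 0.33, 0.06 and 0.26. NR4A1 stood at 0.11, -0.32 and -0.05, and IER2 at -0.16, 0.31 and -0.07. Both clones of JUN had mean changes of 0.16 and -0.27, and the 3 clones of JUNB 0.26, 0.22 and -0.19. The lowest limma adjusted p among them was 0.937. FOSB, EGR1, DUSP1, BTG2 and NPAS4 were not analysed here. Of 22 clones of transcription factors of this class 2 (9.1%) were higher and 4 (18.2%) lower in 3 of 3 pairs, with medians of 0.03, 0.05 and -0.05. Of 21 clones of effectors 5 were higher and 5 lower (23.8% each), with medians of -0.01, 0.11 and -0.05. Among all described spots the shares were 14.2% higher and 13.6% lower. PTGS2, the inducible cyclooxygenase, was higher in each pair (mean 0.29, SE 0.18), and CEBPB, a transcription factor, lower in each (-0.37, SE 0.20). Because ActD was present in both states, these values test no induction of transcription.

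Machinery of RNA decay and of RNA binding stood near 0. The 31 clones of decay factors had medians of 0.02, 0.01 and 0.03 at the 3 times. In 3 of 3 pairs 6 were higher and 6 lower (19.4% each), beside 14.2% and 13.6% of the described spots. LSM1, part of the ring that promotes decapping, stood at 7.05 and 6.61, 6.15 and 4.96, and 7.26 and 6.78 (mean -0.70, SE 0.25), and XRN2, a nuclear exonuclease, had -0.36 (SE 0.13), both at a limma adjusted p of 0.937. EDC3, an enhancer of decapping, had -0.35 and EXOSC2, a subunit of the exosome, 0.45 with a single large value of 1.15 at 30 min. Of 25 clones of RNA-binding regulators of stability, 6 (24%) were higher and 4 (16%) lower in 3 of 3. ELAVL3, a neuronal protein that stabilizes AU-rich messages, stood at 6.27 and 6.30, 6.45 and 6.92, and 6.81 and 7.20 (mean 0.30, SE 0.13), ZFP36L2, which destabilizes such messages, at 0.24, and YBX3 and G3BP1 at -0.28 and -0.27. Of 10 clones of microRNA machinery, XPO5, which exports precursors from the nucleus, stood at 0.27 and DGCR8, a part of the nuclear processing complex, at -0.42.

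Genes of translation had more members lower than higher in every pair. Of 148 clones of cytoplasmic ribosomal proteins 34 (23.0%) were lower and 5 higher in 3 of 3 pairs, beside 13.6% and 14.2% of the described spots, and their medians were -0.30, -0.05 and -0.05. The 30 and 60 min medians changed sign after subtraction of local medians. Without the RPL3 clones the remaining 137 had medians of -0.27, -0.06 and -0.04. RPS28, of the small subunit, stood at 7.08 and 6.04, 7.56 and 7.12, and 7.06 and 6.69 (mean -0.62, SE 0.23). RPL41 and RPL37A, of the large subunit, had means of -0.47 and -0.45. Of 81 clones of translation factors 21 (25.9%) were lower and 5 higher in 3 of 3, with medians of -0.12, -0.08 and -0.11, of which the last 2 also changed sign after subtraction of local medians. Among them EIF3D, a subunit of an initiation factor, had -0.48 (SE 0.18), EIF4H, which assists an RNA helicase, -0.42 (SE 0.13), and a clone of EEF1A1, an elongation factor, -0.40 (SE 0.30). The 9 described clones of EEF1A1 had medians of -0.33, 0.11 and -0.21 at 5, 30 and 60 min.

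The 45 clones of glycolytic enzymes had medians of -0.15, 0.21 and -0.11, and 33 of them were higher at 30 min. ALDOA, an aldolase, had a bright clone at 0.36 (SE 0.14) and a dimmer one at -0.38 (SE 0.15). A clone of PFKL, a phosphofructokinase, had -0.46 (SE 0.18) and HK1, a hexokinase, 0.37 (SE 0.16). The 5 described clones of PFKL had medians of -0.13, 0.21 and -0.16 at 5, 30 and 60 min. The 61 clones of proteasome subunits had medians of -0.07, 0.10 and -0.18. PSME2, of the proteasome activator, stood at 9.40, 9.10 and 9.43 in active and at 8.98, 8.88 and 9.04 in silent cultures, without overlap (mean 0.34, SE 0.11). The 97 clones of respiratory chain subunits stood at 0.01, -0.01 and -0.11.

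The 27 clones of the synaptic vesicle and release list had medians of 0.03, 0.02 and 0.03. In 3 of 3 pairs 6 (22.2%) were higher and 4 (14.8%) lower, beside 14.2% and 13.6% of the described spots. SNAP29, a SNARE protein, was higher in each pair (mean 0.32, SE 0.11), and SYT11, a synaptotagmin, lower in each (-0.32, SE 0.15). The 42 clones of axon and neurite growth genes had medians of 0.03, -0.01 and -0.06. RTN1, a reticulon, was higher in each pair with both clones (0.50, SE 0.21, and 0.38, SE 0.16). PFN2, a neuronal profilin, was lower in each (-0.36, SE 0.20). The 11 clones of postsynaptic genes had medians of -0.03, 0.02 and -0.21. Among them a clone of DBN1, the actin-binding protein drebrin, stood at 9.03 and 8.15, 9.38 and 9.33, and 9.28 and 8.96 (mean -0.42, SE 0.21).

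**Figure D5:**
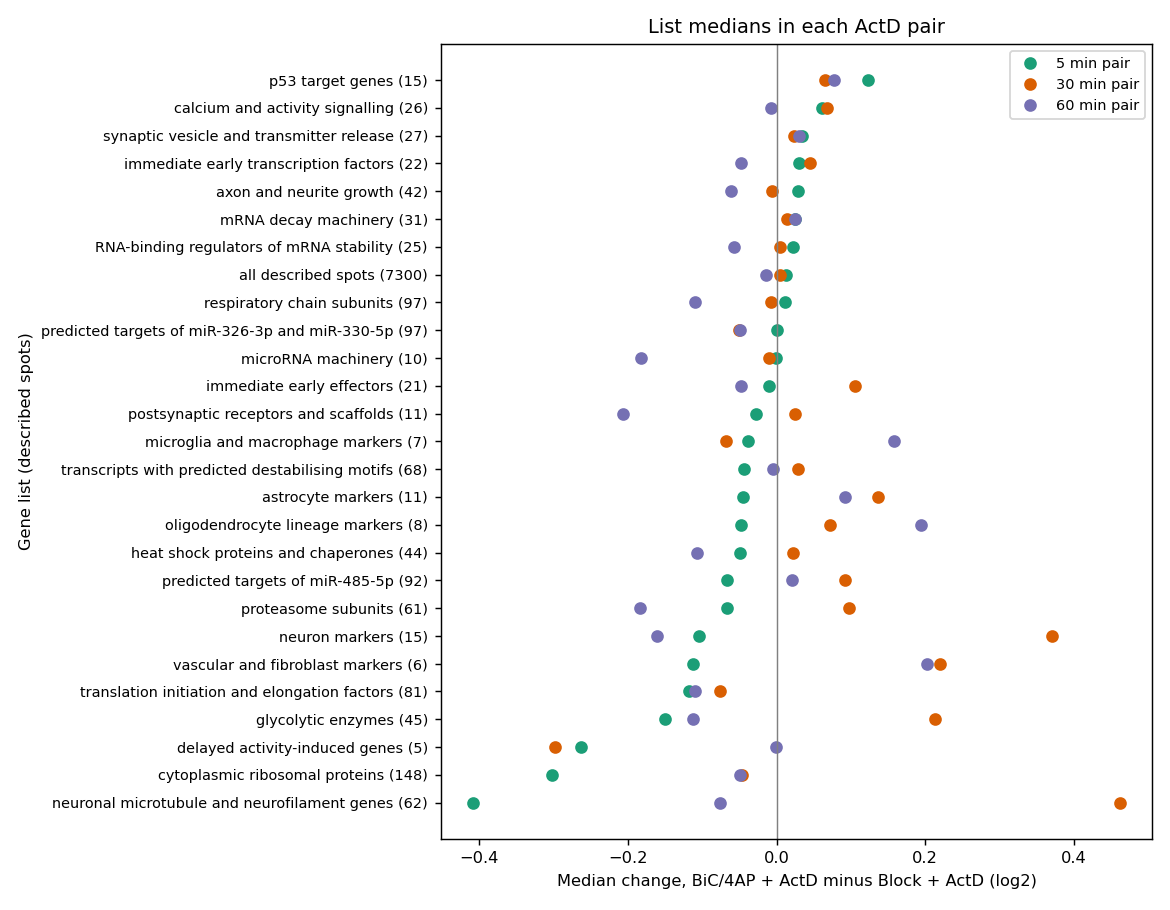
Median change (x axis, log2, active minus silent with ActD) of the clones of each gene list (y axis, with the number of clones) in the 5, 30 and 60 min pairs (points). The microtubule list lies at -0.41, 0.46 and -0.08, and all described spots at 0.01, 0.00 and -0.01.

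Predicted targets of 3 microRNAs named by the study were looked at as well, and its further microRNAs were not analysed here. A microRNA binds messages mainly through its seed, the bases 2 to 8, and the mature rat sequences (RefSeq, GRCr8) are shown with the seed in capitals because it defines the lists.
rno-miR-326-3p: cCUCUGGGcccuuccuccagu
rno-miR-330-5p: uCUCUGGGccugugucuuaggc
rno-miR-485-5p: aGAGGCUGgccgugaugaauuc
The first of these lies at chr1:163266224-163266244, the second at chr1:87961227-87961248 and the third at chr6:134571076-134571097, all on the plus strand. The upper pair shares the seed CUCUGGG and has 1 target list. Of its 291 genes 78 had a described clone, and the 97 clones had medians of 0.00, -0.05 and -0.05. In 3 of 3 pairs 10 (10.3%) were higher and 19 (19.6%) lower, beside 14.2% and 13.6% of the described spots. These shares are those before subtraction of local medians. After it the medians of this list were 0.06, 0.00 and 0.10, so that those at 30 and 60 min no longer lay below 0. All described spots then had medians of 0.04, 0.01 and 0.03. HNRNPA1, a splicing protein, stood at 6.23 and 6.02, 7.48 and 6.91, and 7.48 and 6.77 (mean -0.50, SE 0.18), and ITPK1, an inositol phosphate kinase, at 0.33 (SE 0.13). Of the 245 genes of the other list 66 were described, and their 92 clones had medians of -0.07, 0.09 and 0.02, with 13 higher and 13 lower (14.1% each). RARA, a retinoic acid receptor, had 0.37 (SE 0.18) and GTPBP1, a GTP-binding protein, 0.33 (SE 0.12). The lists share 17 genes. For the 99 genes with a predicted destabilising sequence motif, 68 clones of 43 genes stood at -0.04, 0.03 and 0.00, with 10 higher (14.7%) and 12 lower (17.6%). The targets were predicted from sequence, but the study reached the microRNAs and motifs through transcripts it had called destabilised on its arrays, so that the lists are not independent evidence of a direction.

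Whether the effect of activity depended on ActD was tested in the same fit, and 0 of 9600 spots passed (0.0%, limma adjusted p), with 132 of the described spots (1.81%) at an unadjusted p below 0.05, beside 2.95% of all spots. In 166 described spots (2.27%, beside 2.52% of all spots) the 3 pairs with ActD all went one way and the 3 without it the other. Among the 10 clones with the lowest p, MARS1 stood at 0.10, 0.01 and 0.45 without ActD and at -0.48, -0.66 and -0.51 with it. The difference was 0.74 (SE 0.19, limma adjusted p = 0.998). This MARS1 clone lies in part 9 of 10 of the spot order. After subtraction of local medians it stood at -0.17, -0.34 and -0.04 with ActD. ATP6V1D, a subunit of the vesicular proton pump, stood at -0.34, -0.41 and -0.54 without and at 0.23, 0.48 and 0.43 with ActD, a difference of -0.81 (SE 0.17, limma adjusted p = 0.998). WRAP53 stood at -0.39, -0.35 and 0.13 without ActD.

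The change of the effect from 5 to 60 min with ActD also passed in 0 of 9600 spots (0.0%, limma adjusted p), with 11 described spots (0.151%) at an unadjusted p below 0.05, beside 1.83% of all spots. ANKHD1 had the largest value, 5.30 (SE 1.37), from its single silent array. MOAP1, a partner of the apoptosis regulator BAX, followed downward with changes of -0.52, -0.77 and -2.98, its active array at 60 min reading 3.97 against 5.12 to 6.94 on the other 5. A clone of RSL24D1, a factor of ribosome assembly, stood at 0.51, 0.27 and -1.04, and the 8 described clones of this gene had medians of 0.12, 0.15 and -0.14. Upward, AKAP8L, an anchoring protein of protein kinase A, stood at -0.49, -0.21 and 0.59, and BCL2L1, which blocks apoptosis, at -0.26, 0.06 and 0.75. The limma adjusted p of each was 1.000.

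Markers of the cells in the dish were compared as well. Fewer cells of a type and less RNA per cell cannot be told apart in such samples. Of 21 neuron markers 11 had a described clone, of 17 astrocyte markers 7, of 16 oligodendrocyte lineage markers 5, of 18 microglia markers 7 and of 18 vascular and fibroblast markers 5. MAP2, RBFOX3, AQP4 and ITGAM, which define some of these types, were not analysed here. The median level of the neuron markers ran from 6.46 to 6.50 over the active and from 6.24 to 6.73 over the silent arrays. That of the astrocyte markers ran from 6.03 to 6.34 and from 6.05 to 6.44, of the oligodendrocyte markers from 5.99 to 6.54 and from 6.16 to 6.48, of the microglia markers from 6.97 to 7.22 and from 7.01 to 7.44, and of the vascular markers from 7.26 to 7.37 and from 6.80 to 7.49. Active and silent arrays overlapped for each list. GFAP, of astrocytes, stood at 0.10, 0.25 and 0.02. FN1, of fibroblasts, was higher in each pair (0.36, SE 0.14), at 12.60 to 12.82 in active and 12.11 to 12.48 in silent cultures. It was the only 1 of the 6 vascular and fibroblast clones to be so. The changes of these 6 had medians of -0.11, 0.22 and 0.20 at 5, 30 and 60 min. Neuron markers other than TUBB3 had medians of 0.03, 0.24 and -0.15.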

How the data were processed

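RNA of 12 culture conditions was labelled with 33P and hybridized by the study to nylon arrays of human cDNA clones, 1 array per condition. The authors deposited spot intensity values for 9600 spots, and whether background was subtracted is not given in the sources used here. Rat cDNA was read on human clones, so related clones can bind the same transcripts. Both tables of these values were identical (115200 of 115200), and 0 columns were left unassigned. Of the spots, 8496 carried 1 gene symbol, 21 several, and 1083 were unlisted.

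Log2 intensities were z-scored within each array and multiplied by the mean SD (2.15). limma 3.58.1 in R 4.3.3 was fitted to all 12 arrays with the 6 pairs by time as blocks and an activity term without and with ActD (4 residual degrees of freedom). Benjamini-Hochberg adjustment ran over all 9600 spots with a threshold of 0.05. The threshold on the z-fold was 1.4, and its exact formula was taken as the difference of z-scores divided by the SD of this difference. The study's methods describe a 5 min stimulus with later harvest, whereas the times used are those in the labels. Since no condition was repeated, p-values rest on the spread of paired differences over 3 times, which mixes time course and technical error. This spread was pooled over the pairs with and without ActD, so an SE or p-value does not describe the 3 ActD pairs alone. The number of arrays limits precision. The fit was tested on simulated data with effects larger than the mean changes of the named clones and no trend of the change along the spot order. That test therefore does not show how the fit performs for changes of the size described.

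Clones named in the text were the 12 lowest by p per direction, the same among spots with a mean log2 intensity of at least 9 (6 per direction), the 4 largest changes per direction and time among those of at least 7, the 4 largest mean changes per list, the 5 lowest by p per direction for each contrast, and the immediate early genes of the stimulation check. Other clones and families were named after their values were seen. Members and gene lists were chosen with earlier results of these data known. Alternatives were quantile normalization, median centring, an added 10th percentile, fewer spots, the ActD arrays alone, no pairing, each pair left out and, added after seeing the data, cyclic loess and subtraction of medians over runs of 25 spots.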

Additional observations from a re-analysis of the deposited data

Results flagged for a closer look

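The 1 spot that passed the test for activity with ActD has no entry in the annotation and was in no comparison of named clones. Its mean log2 intensity was 1.82, its changes were 2.40, 2.17 and 1.98 at 5, 30 and 60 min, with a mean of 2.18 (SE 0.15, limma adjusted p = 0.0269), and without ActD it stood at 0.06, -0.07 and 0.46. It is the last spot of a run of 25.

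In 9 of the 10 clones with the lowest p for the difference by ActD, all 3 pairs went one way with and the other way without ActD. Choice by this difference favours opposite directions, so the count is no result of its own. Over the described spots the share was 2.27%, beside 2.52% of all spots. The differences, without minus with ActD, were 0.70 for PRAF2, 0.69 for PFKM, 0.74 for MARS1, 0.69 for SERPINF1, -0.81 for ATP6V1D, -0.73 for AASDH, -0.81 for ZYX, -0.70 for GNB5 and -0.61 for SSC4D, each with a limma adjusted p of 0.998.

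The decay machinery had medians above 0 at each time with ActD and below 0 at each time without. Its median mean change was 0.0163 with ActD and its median difference 0.0257. After subtraction of medians of 25 spots its ActD medians were 0, -0.02 and 0.04, so that they no longer all lay above 0. All described spots had ActD medians of 0.01, 0.00 and -0.01 before this subtraction. The 4 clones of ATF4, a stress transcription factor, stood at a median of 0.0277 in the 5 min ActD pair, and those of NONO, a nuclear RNA-binding protein, at -0.0805, and for both genes the medians of the 3 times lay on opposite sides of 0 with and without ActD. After subtraction of medians of 25 spots this no longer held, the ActD medians being 0.08, -0.05 and 0.01 for ATF4 and 0.09, -0.25 and 0.27 for NONO. These differences between medians were not tested.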

How the results depend on the processing

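The count of spots passing the test for activity with ActD was 1 of 9600 and became 0 with quantile normalization, the 10th percentile added, described spots only, spots above 7 only, the ActD arrays only, no pairing by time and cyclic loess, and ranged from 0 to 0 when each pair was left out. At an unadjusted p below 0.05 these counts were 434 originally and 88 to 447 otherwise. The count of described spots beyond a z-fold of 1.4 was 128 at 5 min, 268 at 30 min and 137 at 60 min. It was 245 and 177 at 5 and 30 min with quantile normalization, 838, 949 and 1055 with the 10th percentile added, 879, 966 and 1061 with the SD taken over described spots only, 289 at 5 min and 434 at 60 min with spots above 7 only, and 45 at 60 min after subtraction of medians of 25 spots. That subtraction turned HAUS4 to 0.0618. Over 32 named clones, 395 of 396 values kept direction and side of the threshold. No described spot passed at any setting, so the side of the threshold told nothing more. The leading clones had been chosen for the same sign in 3 of 3 pairs. After subtraction of medians of 25 spots, 3 of the 12 leading clones in each direction kept a limma unadjusted p below 0.05. Of 312 list medians 277 stayed within the spread between pairs and 35 moved further. The cause was not tested.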

Other observations

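Clones of unrelated genes with levels most like the mean of the tubulin clones over the 12 arrays, which share hybridizations, were those of RPL27A (r = 0.991), a ribosomal protein, SLX1B (0.982), IPO4, a nuclear import receptor (0.934), and GAPDH (0.931). With ActD this RPL27A clone stood at -1.38, 1.01 and -0.31 at 5, 30 and 60 min. Other clones of RPL27A stood at -1.25, 0.56 and 0.35 and at 0.01, 0.06 and -0.14, and the other clone of SLX1B at 0.12, -0.47 and -0.10. Clones of SQSTM1, an autophagy receptor, also disagreed, with -0.83, 0.70 and -0.15 for the brighter and 0.02, -0.52 and 0.14 for the dimmer. EIF4A2, an RNA helicase of translation initiation, had all 4 clones lower at 60 min (median -0.39) and medians of -0.01 and -0.09 before.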
